A study of Homo sapiens with 2 samples.

Results

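The genes described here encode the integrins, which hold cells to their surroundings, and the laminins, which many of them bind. A gene was a member if a probe set with a single gene symbol in the array's annotation carried an ITGA, ITGB, LAMA, LAMB or LAMC symbol of one subunit. That gave 35 of the 18417 genes with a name on the array, namely 17 integrin alpha chains, 8 integrin beta chains and 10 laminin chains, each with 1 probe set. The related name ITGA1 stood only on a probe set shared with PELO, and LAMA3 was not analysed here. RNA came from U251 cells, an established human glioblastoma line, grown in high-glucose DMEM and given for 6 h either 5 µM G-TPP or the solvent DMSO alone. G-TPP is a Gamitrinib, an Hsp90 inhibitor joined to triphenylphosphonium, a cation that carries it into mitochondria, and the study asked how transcripts respond when Hsp90-type chaperones there are targeted. There was 1 array for G-TPP and 1 array for DMSO, both from the same single cell line, and whether cultures were pooled is not given in the sources used here.

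Integrins are pairs of an alpha and a beta chain that cross the cell membrane. Outside they grip matrix proteins such as fibronectin, collagens and laminins, and inside they are tied through talin and kindlin to actin. Laminins are trimers of an alpha, a beta and a gamma chain that form the core sheet of basement membranes. In glioma both families are known for their part in the spread of tumour cells along vessels and white matter.

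The deposited values are intensities on a linear scale, with a median of 215.5 over the 33297 probe sets of the G-TPP array and 224.8 in the DMSO array. With 1 array per group no test and no error can be given, so "higher" and "lower" describe these 2 arrays. A gene was kept if its brighter array reached an intensity of 239.2, the middle of the brighter values of all probe sets, which left 11091 genes. Bulk RNA cannot tell fewer cells of a type from less RNA per cell. Of 10 markers of astroglial and glioma cells 7 were kept, among them VIM at 6494 with G-TPP and 7146 with DMSO. GFAP, the astrocyte filament, lay near the filter at 232 with G-TPP and 245 with DMSO, and S100B, AQP4 and OLIG2 lay under it. Of the 7 kept, SOX2, a factor of neural stem cells, had 1629 with G-TPP and 4434 with DMSO (2.72-fold lower). SLC1A3, which takes up glutamate in astrocytes, had 1183 with G-TPP and 759 with DMSO (1.56-fold higher).

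The integrin and laminin transcripts that passed the filter differed by less than 2-fold between the arrays, as did most kept genes. Of the 35 genes 19 passed the filter, 11 integrins and 8 laminins, and 0 of these 19 differed by 2-fold or more in either direction, where 3.35% of all kept genes did (2.8% higher and 0.55% lower). At so small a share, a count of 0 among 19 does not set these genes apart from the rest. At 1.5-fold or more the count was 1 of 19, LAMA5, against 10.6% of all kept genes. None of the 19 was at least 1.5-fold higher, where 7.37% of all kept genes were. Their log2 differences, G-TPP minus DMSO, ran from -0.62 to 0.44 with a median of -0.10, and the median of all kept genes was -0.04. Below 0 lay 14 of the 19, where 55.9% of all kept genes did. The middle 50% of all kept genes ran from -0.21 to 0.19, and 11 of the 19 lay inside that range, 6 below it and 2 above it. All 19 lay within the central 95% of kept genes, which ran from -0.64 to 1.05. For scale, 341 olfactory receptor genes, a family of odour sensors of the nose, had log2 differences with a standard deviation across genes of 0.19, though they are dimmer than the kept genes and differences between cultures were not measured.

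**Figure D1:**
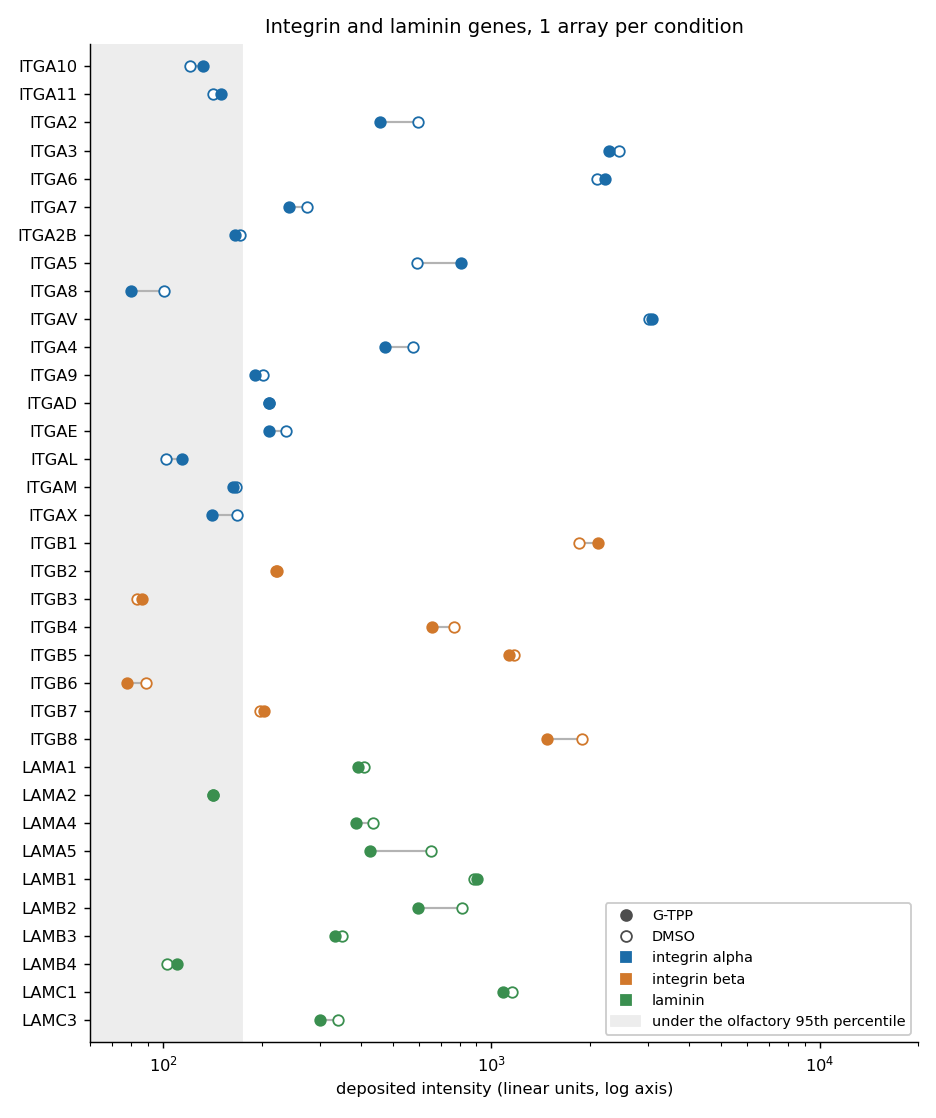
Deposited intensity (linear units on a log axis) of the 35 integrin and laminin genes in the G-TPP array (filled) and the DMSO array (open), with 1 array each and the grey area under the 95th percentile of olfactory receptors. Most pairs of points nearly touch, LAMA5 has the widest gap among the kept genes, and 11 genes lie in the grey area in both arrays.

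**Figure D2:**
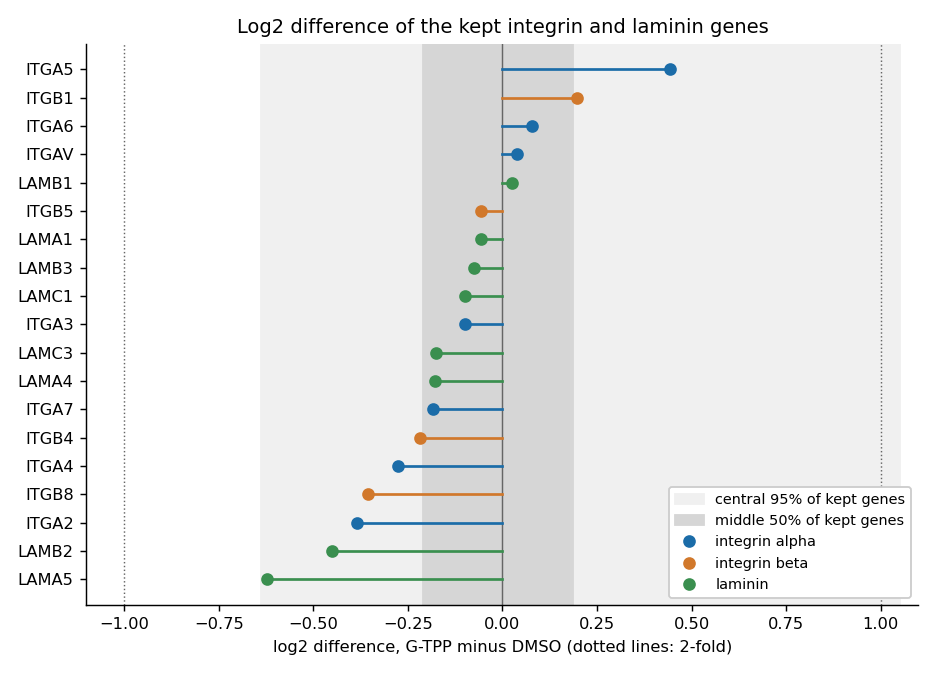
Log2 difference, G-TPP minus DMSO, of the 19 kept genes, with dotted lines at 2-fold and shading for the middle 50% and the central 95% of the 11091 kept genes. The values run from -0.62 for LAMA5 to 0.44 for ITGA5, and none reaches a dotted line.

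The promoters of the 2 lowest laminin genes and of the highest and the lowest integrin gene among those kept are shown first, so that their sequences can be set beside the values that follow. They are from RefSeq on build GRCh38.p14 and hold 250 bases before and 20 bases from the annotated transcription start, 5′ to 3′ on the gene's own strand. LAMA5 is at chr20:62367293-62367562 on the minus strand and LAMB2 at chr3:49133031-49133300 on the minus strand. ITGA5 is at chr12:54419247-54419516 on the minus strand and ITGA2 at chr5:52989102-52989371 on the plus strand. Capitals mark the GC box (GGGCGG or CCGCCC) and the AP-1 motif (TGAGTCA or TGACTCA).
LAMA5: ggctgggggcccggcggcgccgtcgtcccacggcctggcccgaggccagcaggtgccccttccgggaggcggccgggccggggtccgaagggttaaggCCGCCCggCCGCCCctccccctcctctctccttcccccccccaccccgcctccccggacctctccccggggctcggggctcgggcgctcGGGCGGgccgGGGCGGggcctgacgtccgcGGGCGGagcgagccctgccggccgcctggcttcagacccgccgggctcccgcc
LAMB2: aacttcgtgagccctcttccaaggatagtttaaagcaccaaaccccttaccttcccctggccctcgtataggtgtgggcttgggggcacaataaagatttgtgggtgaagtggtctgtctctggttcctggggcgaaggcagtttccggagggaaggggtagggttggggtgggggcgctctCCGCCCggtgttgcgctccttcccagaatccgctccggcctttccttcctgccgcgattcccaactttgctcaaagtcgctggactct
ITGA5: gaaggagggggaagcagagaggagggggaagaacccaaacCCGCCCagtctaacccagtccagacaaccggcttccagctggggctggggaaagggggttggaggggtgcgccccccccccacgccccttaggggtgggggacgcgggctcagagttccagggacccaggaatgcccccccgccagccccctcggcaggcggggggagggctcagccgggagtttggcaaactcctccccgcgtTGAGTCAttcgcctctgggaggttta
ITGA2: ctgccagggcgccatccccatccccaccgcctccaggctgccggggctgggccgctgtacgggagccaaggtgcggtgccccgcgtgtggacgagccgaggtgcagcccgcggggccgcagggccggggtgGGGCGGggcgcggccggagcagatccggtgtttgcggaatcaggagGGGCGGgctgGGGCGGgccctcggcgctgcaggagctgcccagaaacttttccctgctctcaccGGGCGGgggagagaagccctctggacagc

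The LAMA5 window held 83.0% G or C, more than 99.1% of 35116 promoter windows of the same length, and 5 GC boxes. LAMB2 was ordinary in this respect, with 58.1% G or C, more than 49.3% of the windows, and 1 GC box. At ITGA5 the share was 68.5% and at ITGA2 75.2%, with 1 and 4 GC boxes. A GC box stood in 43.7% of all windows. The ITGA5 window held an AP-1 motif at positions -6 to 1, counted from the start with no position 0, and 4.60% of all windows held one. Of the 35 genes 24 had an entry, 14 of them kept, and with several starts for some genes these gave 31 windows. LAMB3, with a log2 difference of -0.08, was the other gene with an AP-1 motif among them, at -67 to -61 before one of its starts. Motifs read by factors of the integrated, endoplasmic reticulum and heat stress responses were also searched. The composite motif of C/EBP and ATF factors (TGATGCAA or TTGCATCA) stood in 1 of the 31 windows, upstream of ITGB5, and in 0.832% of all windows. The endoplasmic reticulum stress element (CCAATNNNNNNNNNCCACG or its reverse, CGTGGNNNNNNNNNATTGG) and the heat shock element (GAA and TTC blocks in turn, with a pair of free bases between blocks) stood in 0 of the 31, against 0.0769% and 0.458% of all windows. All motifs were read on both strands, and a match or its absence describes letters in this window and not binding.

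Of 8 kept laminin chains 7 had a log2 difference below 0, where 55.9% of all kept genes did, and their median was -0.14. After quantile normalization 8 lay below 0, against 55.6% of all kept genes, and after lowess centring 5, against 50.3%. Only LAMA5 and LAMB2 lay below the middle 50% of all kept genes, which began at -0.21. Among the alpha chains, which give a laminin its receptor binding, LAMA5 (probe set 8067409) had an intensity of 426 with G-TPP and 656 with DMSO. This chain of laminins 511 and 521, the widespread laminins of adult basement membranes, was thus 1.54-fold lower, a log2 difference of -0.62, and 2.70% of all kept genes had a lower one. It was the 1 gene of the 19 past 1.5-fold, where 3.23% of all kept genes were at least 1.5-fold lower, and after centring on the median of all kept genes its difference was -0.58, just under 1.5-fold. LAMA4, the chain of vascular laminins 411 and 421, had 387 with G-TPP and 437 with DMSO (log2 difference -0.18). LAMA1, the chain of the embryonic laminin 111, had 393 with G-TPP and 409 with DMSO, a log2 difference of -0.06 that became 0.01 after lowess centring. LAMA2, of muscle and nerve laminins, was listed at the same 142 in both arrays, under the range used as a floor.

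The kept beta and gamma chains, which complete the trimer, ran in log2 difference from -0.45 for LAMB2 to 0.03 for LAMB1. LAMB2 (probe set 8087337), the beta chain of laminins at the kidney filter and the neuromuscular junction, had 596 with G-TPP and 814 with DMSO. It was 1.37-fold lower, a log2 difference of -0.45, and 6.32% of all kept genes lay lower. LAMB1, the beta chain that stands in for LAMB2 in many laminins, had 902 with G-TPP and 887 with DMSO. Its log2 difference of 0.03, or -0.02 after quantile normalization, makes it the one kept laminin chain above 0 in the values as deposited. LAMC1, the gamma chain shared by most laminins, had 1082 with G-TPP and 1158 with DMSO (-0.10). LAMB3, a chain best known from skin, had 334 with G-TPP and 352 with DMSO, a log2 difference of -0.08 (0.01 after lowess centring). LAMC3, a gamma chain of few tissues, had 302 with G-TPP and 341 with DMSO (-0.18). LAMB4 lay within the range of the floor at 109.97 with G-TPP and 102 with DMSO.

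Of 13 laminin trimers written down from general knowledge, 8 had all 3 chains kept and 2 hold LAMA3, which was not analysed. In 5 of the 8 every chain had a log2 difference below 0 (4 after lowess centring and 8 after quantile normalization), and the other 3 each contain LAMB1. Laminin 521, of LAMA5, LAMB2 and LAMC1, joined both lowest chains at -0.62 and -0.45 to LAMC1 at -0.10. Laminin 111 spanned -0.10 to 0.03. The trimers share chains, so these counts are not independent of each other.

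Integrin alpha chains, which choose the ligand, went both ways, with 3 of the 7 kept above 0 (2 after quantile normalization) and the others below, and their median was -0.10. ITGA5 (probe set 7963786), which with ITGB1 forms the classical fibronectin receptor, had 807 with G-TPP and 594 with DMSO. It was 1.36-fold higher, a log2 difference of 0.44, and 88.7% of all kept genes had a lower one. ITGAV, the chain of several receptors for RGD-bearing ligands such as vitronectin, had 3091 with G-TPP and 3012 with DMSO, a log2 difference of 0.04 (-0.01 after quantile normalization). The other genes of RGD-binding chains gave no fold, since ITGA8 had 79.6 with G-TPP and 100.4 with DMSO, and ITGA2B, the platelet chain, 165 with G-TPP and 171 with DMSO, all under the floor.

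The laminin-binding alpha chains all passed the filter and stayed close to 0. ITGA6 had 2212 with G-TPP and 2095 with DMSO, a log2 difference of 0.08. ITGA3 had 2289 with G-TPP and 2452 with DMSO (-0.10). ITGA7, best known from muscle, had 242 with G-TPP and 275 with DMSO (-0.18), close to the filter. Its values lay within the range of the olfactory receptor genes, which reached 266 with G-TPP and 324 with DMSO. The lowest of these values, 1.14-fold lower for ITGA7, was nearer to 0 than the 1.54-fold lower LAMA5.

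Of the collagen-binding alpha chains only ITGA2 was kept. ITGA2 (probe set 8105267) had 458 with G-TPP and 598 with DMSO, 1.31-fold lower, a log2 difference of -0.39 with 9.15% of all kept genes lower. That was the lowest value among the integrins. ITGA10 had 133 with G-TPP and 121 with DMSO, and ITGA11 had 149.9 with G-TPP and 142 with DMSO, both under the floor. ITGA4, a receptor chain for VCAM1 and for a variable part of fibronectin, had 475 with G-TPP and 575 with DMSO (1.21-fold lower, -0.28). Its relative ITGA9 stayed under the filter at 191 with G-TPP and 201 with DMSO.

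Beta chains carry the tail that talin and kindlin bind, and the 4 kept ones had log2 differences with a median of -0.14. ITGB1 (probe set 7932966), the partner of most alpha chains, had 2119.6 with G-TPP and 1849 with DMSO. It was 1.15-fold higher, a log2 difference of 0.20, and the 1 kept beta chain above 0. ITGB8 (probe set 8131666), which pairs with ITGAV and releases active TGF-beta from its latent complex, had 1473 with G-TPP and 1885 with DMSO. It was 1.28-fold lower, a log2 difference of -0.36, with 10.8% of all kept genes lower. TGFB1, whose latent product is a ligand of that pair, had 606 with G-TPP and 836 with DMSO (1.38-fold lower, -0.46). TGFB3 and LTBP1, listed like TGFB1 among the integrin ligands, were higher. TGFB3 had 292 with G-TPP and 259 with DMSO (0.17), and LTBP1 had 345 with G-TPP and 250 with DMSO (0.46). ITGB4, the long-tailed partner of ITGA6 in hemidesmosomes, had 661 with G-TPP and 769 with DMSO (-0.22). ITGB5, which binds vitronectin with ITGAV, had 1128 with G-TPP and 1173 with DMSO (-0.06). Under the floor lay ITGB3 (86.4 with G-TPP, 83.5 with DMSO), shared by the platelet and vitronectin receptors, and ITGB6 (77.7 with G-TPP, 88.5 with DMSO), an epithelial chain.

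The 5 alpha chains grouped here as leukocyte integrins and both of their beta partners all stayed below the filter. ITGAL, ITGAM and ITGAX lay under the floor in both arrays, with intensities between 102 and 168. ITGAD was listed at the same 210.7 in both arrays, and ITGAE had 209.5 with G-TPP and 236 with DMSO. ITGAE lay just under the filter and was kept when the filter was set on the mean of both arrays. ITGB2, the beta chain of ITGAL, ITGAM, ITGAX and ITGAD, had 221 with G-TPP and 222 with DMSO. ITGB7, a partner of ITGAE, had 202 with G-TPP and 197 with DMSO. ITGA4, which also pairs with ITGB7, was grouped apart and was kept, at 475 with G-TPP and 575 with DMSO. Of 11 other leukocyte markers on the array 2 were kept, and the sum over the list was 1581 with G-TPP and 1819 with DMSO. The kept ones were SPI1, with 291 with G-TPP and 335 with DMSO, and TYROBP, with 220 with G-TPP and 306 with DMSO. PTPRC, the CD45 gene of leukocytes, was the dimmest of the list, with 32.9 with G-TPP and 34.8 with DMSO. Of 5 platelet markers 2 were kept, GP9 and GP6, with a sum over the list of 688 with G-TPP and 799 with DMSO, and the platelet chains ITGA2B and ITGB3 were under the floor. The part of other cell types in the values of the kept integrins was not tested, and of the other marker lists 4 of 7 epithelial, 2 of 6 endothelial and 2 of 5 muscle genes were kept, none of them at 1.5-fold, unlike the glial markers SOX2 and SLC1A3 given above.

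Read as receptors, 10 of the 24 known alpha-beta pairs had both genes kept, and 1 pair has ITGA1, which was not analysed. Both chains were above 0 in 3 of the 10, all pairs of ITGB1, and in 7 the chains had opposite signs. In the pair of ITGA5 and ITGB1 the values were 0.44 and 0.20, and FN1, the gene of their ligand fibronectin, had 704 with G-TPP and 608 with DMSO (log2 difference 0.21). The third pair, ITGAV with ITGB1, counts only while ITGAV is above 0, which it was not after quantile normalization. The pairs of ITGAV with ITGB5 and with ITGB8, among the 7, also depend on that sign. After quantile normalization both chains of each lay below 0, with -0.01 for ITGAV, -0.11 for ITGB5 and -0.39 for ITGB8. The collagen receptor of ITGA2 and ITGB1 spanned the widest gap, with -0.39 for its alpha and 0.20 for its beta chain. Pairs that share a chain share its value.

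**Figure D3:**
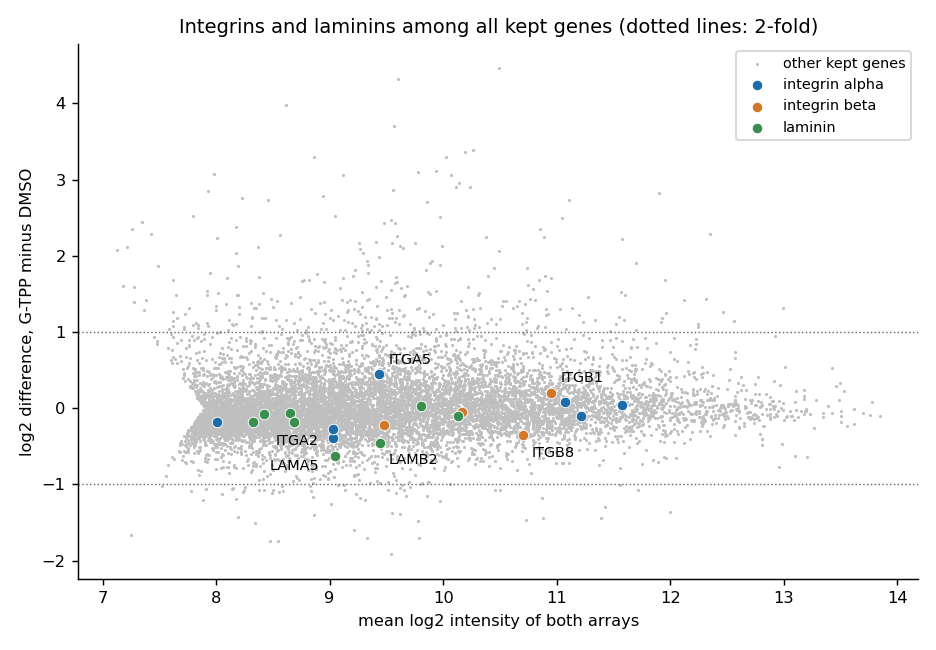
Log2 difference, G-TPP minus DMSO, against the mean log2 intensity of both arrays for the 11091 kept genes (grey) and the 19 kept integrins and laminins (coloured), with dotted lines at 2-fold. The coloured points run from -0.62 to 0.44, within the central 95% of kept genes, and 3.35% of all kept genes lie on or beyond the dotted lines.

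Of 127 kept genes in 7 lists of genes that act with integrins and laminins, 3 (2.36%) differed by 2-fold or more, against 3.35% of all kept genes. At 1.5-fold there were 13 of the 127 (10.2%), against 10.6%. The adhesion adaptors, which link integrin tails to actin, had 0 of 28 kept genes at 2-fold, 19 of them below 0 (55.9% of all kept genes were) and a median of -0.16 in log2 difference. Lowest were the tensin gene TNS2, with 229.9 with G-TPP and 396 with DMSO (1.72-fold lower), and the docking protein gene NEDD9, with 555 with G-TPP and 938 with DMSO (1.69-fold lower). Past 1.5-fold, which 10.6% of all kept genes reached, there were also TNS3 (1.62-fold lower), FHL2 (1.55-fold higher) and the kindlin gene FERMT2, with 1875 with G-TPP and 1176 with DMSO (1.59-fold higher). These 3 were chosen after their values were seen, as were the other integrin activators. The talin genes TLN1 and TLN2 had log2 differences of 0.26 and 0.40, and the other kindlins FERMT1 and FERMT3 -0.30 and 0.12.

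Signalling genes downstream of integrins had a median of 0.07 over 22 kept genes, with 16 above 0, where 44% of all kept genes were. After quantile normalization 14 were above 0, where 55.6% of all kept genes were below 0. After lowess centring 14 were above 0 as well, where 50.3% of all kept genes were below 0. At least 2-fold higher was 1 of the 22, where 2.8% of all kept genes were. That gene was FYN (probe set 8128956), a Src-family kinase that acts at adhesions and elsewhere, with 1353 with G-TPP and 484 with DMSO, 2.80-fold higher. ARHGAP26, a GTPase-activating protein that binds focal adhesion kinase, was 1.54-fold higher, while PTK2, the gene of that kinase, had a log2 difference of 0.10. Of 13 kept membrane partners 10 were below 0, where 55.9% of all kept genes were, and their median was -0.24. The largest difference in this list was that of SLC3A2, which encodes the CD98 heavy chain that joins beta tails and also amino acid transporters, with 3854 with G-TPP and 2076 with DMSO (1.86-fold higher). PLAUR, the urokinase receptor, was 1.25-fold lower.

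Ligands of integrins other than laminins and collagens had a median of 0.10 over 16 kept genes, with 11 above 0, where 44% of all kept genes were. With no filter their median was -0.07, with 20 of 34 below 0. CCN2, a matrix-associated growth regulator, had 4547 with G-TPP and 1977 with DMSO, 2.30-fold higher and the 1 ligand at 2-fold, where 2.8% of all kept genes were at least 2-fold higher. A list of basement membrane genes other than laminins also holds netrin genes and is not one of laminin-binding proteins alone. Of its 15 kept genes 12 were below 0, where 55.9% of all kept genes were, and the median was -0.12. The proteoglycan genes AGRN and HSPG2, for agrin and perlecan, both of which bind laminin sheets to cells, were lowest. AGRN had 347 with G-TPP and 574 with DMSO (1.66-fold lower), and HSPG2 had 245 with G-TPP and 363 with DMSO (1.48-fold lower). The linker NID1 had a log2 difference of -0.09.

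Laminin receptors other than integrins were listed together with the enzymes that glycosylate dystroglycan, so their values are not of receptors alone. Of 24 genes listed 17 were analysed, without the dystroglycan gene DAG1, and 16 were kept. These had a median of -0.17, with 9 below 0, where 55.9% of all kept genes were. At 2-fold there were 0, against 3.35% of all kept genes. With the filter at the 75th percentile their median was 0.03, with 6 of 10 above 0. The syndecan gene SDC3 was 1.62-fold higher and UTRN, for utrophin, 1.37-fold higher. Matrix proteases and their inhibitors had a median of 0.01 over 17 kept genes (-0.06 with the filter at the 75th percentile). Of these 1 was at 2-fold, where 3.35% of all kept genes were. TIMP4, a metalloproteinase inhibitor, had 873 with G-TPP and 256 with DMSO, 3.40-fold higher, and ADAM17, a sheddase of cell surface proteins, was 1.62-fold higher.

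**Figure D4:**
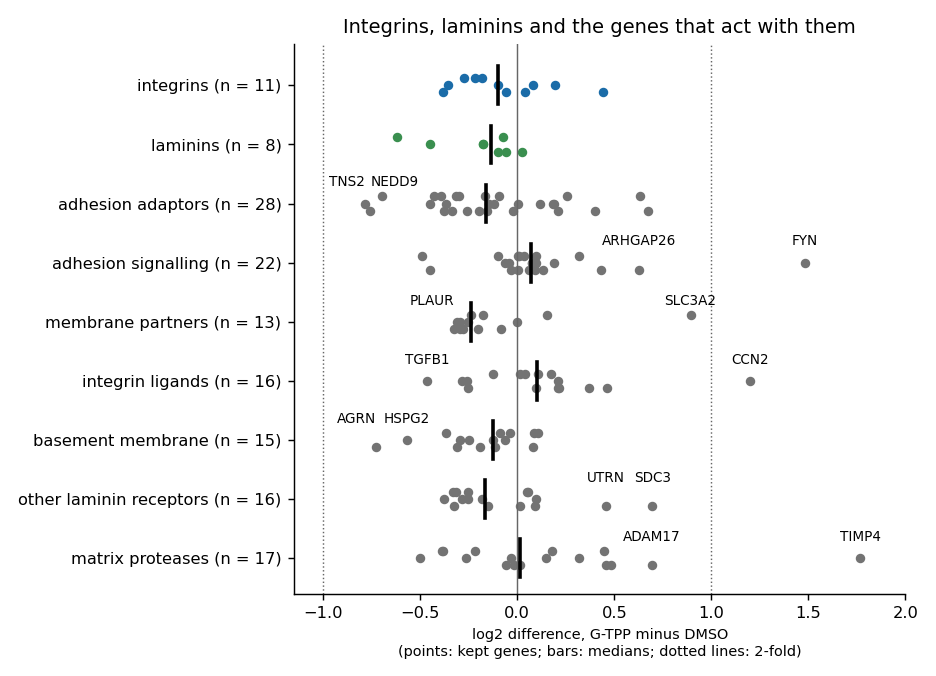
Log2 difference, G-TPP minus DMSO, of the kept genes (points) and their median (bar) for integrins, laminins and 7 lists of genes that act with them, with dotted lines at 2-fold and 1 array per condition. FYN, CCN2 and TIMP4 lie past the dotted line on the high side, and no gene of these groups lies past the one on the low side.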

How the data were processed

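Total RNA of U251 cells was extracted with Trizol and labelled with biotin for Affymetrix arrays, per the labels' protocols, and each condition has 1 array. RMA in Affymetrix Expression Console 1.1.2 is named in the submitters' processing notes, and the deposited intensities are on a linear scale, as their values up to 18995 show. RMA scales arrays to each other, so a change in total RNA per cell may not show, and the deposited medians still differ, at 215.5 with G-TPP and 224.8 with DMSO. For arrays, their number limits the precision.

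Probe sets were named through the platform annotation, and gene IDs were looked up in the RefSeq table of GRCh38.p14 for current symbols. Of 33297 probe sets 19460 had 1 symbol, 1754 had several and 12083 were not listed; the probe set with the highest mean stood for a gene. The log2 of each intensity was taken with no pseudocount and G-TPP minus DMSO computed. Genes were counted at 2-fold and 1.5-fold. No fold is given for a gene under the 95th percentile of 341 olfactory receptor genes in both arrays (173.6 with G-TPP, 172.6 with DMSO), the floor of the text. All 35 genes are named, together with the genes at 2-fold in each partner list or, where fewer than 2 reached that, the 2 with the largest absolute difference. The talins, kindlins, TNS3, FHL2, PTK2, FN1, NID1, TGFB3 and LTBP1 were added after their values were seen. The members and lists were chosen with earlier results of these data known, and the pairs, trimers, GC box and CCAAT motif after the values were seen. Counting of genes past 2-fold was tested on simulated data with planted changes well past 2-fold. That checks the counting only and not smaller differences such as those described here. Alternatives were other fold thresholds, filters, choices among probe sets, a pseudocount of 16, centring on the median or by lowess (span 0.3) and quantile normalization. Scripts ran in Python 3.11.15 with pandas 2.3.3 and numpy 2.4.6, lowess came from statsmodels 0.14.6, and plots from matplotlib 3.10.9.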

Additional observations from a re-analysis of the deposited data

How the results depend on the processing

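No paired analysis was possible because each condition has 1 array, and leaving out a replicate was not possible for the same reason. The count of integrins and laminins at least 2-fold higher or lower was 0 under all 9 alternatives to the filter, the probe set, the scale and the normalization, and at 3-fold. At a 1.5-fold threshold 0 were higher and 1 was lower, LAMA5, which was also under 1.5-fold after centring on the median and under the filter at the 75th percentile. Over all kept genes, 817 were higher and 358 lower at 1.5-fold, and 97 higher and 7 lower at 3-fold, where at 2-fold 310 were higher and 61 lower. With the filter at the 75th percentile 37 of all kept genes were at least 2-fold lower. The median of the kept integrins ran from -0.14 to -0.01 and that of the kept laminins from -0.15 to -0.09 over these alternatives. Of the 19 kept genes 4 had a sign that differed between settings, ITGAV, LAMA1, LAMB1 and LAMB3, and no value moved by more than 0.12 on the log2 scale. Since each of these genes has 1 probe set, 4 of the 9 alternatives could move its value (the pseudocount, both centrings and quantile normalization), and the others could change only which genes were kept. Because 1 array stands for each condition, differences between cultures cannot be separated from those between treatments.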

Other observations

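The probe set that the annotation gives to both PELO and ITGA1 had an intensity of 352 with G-TPP and 252 with DMSO, a log2 difference of 0.48, and names neither gene. Of the 35 integrins and laminins 2, ITGAD and LAMA2, were listed with the same value in both arrays to the last digit. That was so for 334 of the 33297 probe sets and for 17 of the 11091 kept genes.

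The CCAAT motif (CCAAT or ATTGG) was in 6 of the 31 promoter windows and in 33.1% of all windows, and in none of the 4 printed above.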
